A study of Drosophila melanogaster with 2 samples.

Results

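The genes described here are the translation factor and aminoacyl-tRNA synthetase genes of Drosophila melanogaster. They were chosen by symbol alone, as protein-coding genes of the Ensembl BDGP6 annotation whose name begins with eIF, eEF or eRF, or is an amino acid abbreviation followed by RS, with or without the mitochondrial ending -m. The rule gave 86 genes of 13968 protein-coding genes on the main chromosome arms: 44 initiation factors, 8 elongation factors, 2 termination factors, 17 cytosolic and 15 mitochondrial synthetases. It misses 3 cytosolic synthetase genes with longer names, GluProRS, alpha-PheRS and beta-PheRS, which are given with the other translation genes further on.

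Binding of the zinc-finger protein Pita was mapped by chromatin immunoprecipitation and sequencing in whole embryos of a transgenic line that stably carries Pita with GFP at its C terminus. The single group holds 2 libraries, biological replicates 1 and 3, from embryos aged 0 to 24 hours with males and females pooled, and chromatin was sonicated to 200 to 800 bp. The labels' description names an antibody against GFP, whereas their antibody field names pita, and there is no second condition to compare. Nothing states how separately the replicates were raised, so the spread between them may be technical. Whole embryos mix all tissues and many stages, so a peak cannot be assigned to a cell type, and binding of the tagged protein is all that was measured.

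Translation factors carry the ribosome through initiation, elongation and termination, and aminoacyl-tRNA synthetases charge each tRNA with its amino acid. Most are housekeeping genes that every growing cell transcribes, and embryos rely on maternal stores of their products early on. Pita belongs to the architectural proteins of insects, which sit at chromatin boundaries and at many promoters of broadly used genes.

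Of the 86 genes, 6 had a reproducible Pita summit within 500 bp of an annotated transcription start site (TSS): eIF4G2, eIF2Bepsilon, eIF4A, eIF4H1, eEF1beta and HisRS. At 5 of them a 19 bp sequence that recurs under Pita summits elsewhere in the genome lay within 50 bp of the summit. The letters are printed below because they are the feature that most of the bound promoters share. The stretches are reference sequence (RefSeq, Release 6, the assembly of the dm6 lists), read 5′ to 3′ on the strand that carries the match. Capitals mark the 19 bp match and lower case the 16 bp on each side.
eIF4G2, chr3R:23819323-23819373, plus strand: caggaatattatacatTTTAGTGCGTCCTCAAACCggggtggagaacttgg
HisRS, chrX:18515322-18515372, plus strand: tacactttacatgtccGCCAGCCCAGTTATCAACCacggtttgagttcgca
eIF2Bepsilon, chrX:1922923-1922973, plus strand: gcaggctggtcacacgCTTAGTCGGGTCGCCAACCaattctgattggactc
eIF4A, chr2L:5981485-5981535, plus strand: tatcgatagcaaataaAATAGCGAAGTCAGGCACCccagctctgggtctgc
eIF4H1, chrX:16448524-16448574, minus strand: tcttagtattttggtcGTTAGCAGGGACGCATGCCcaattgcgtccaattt

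The matched letters varied between genes but kept a common frame. All 5 matches had A at position 4, G at position 5 and C at positions 18 and 19, counted from the first capital. Position 3 was T in 4 of them, and so was G at position 10. eIF2Bepsilon carried the most frequent letter of the matrix (the table of letter frequencies used to score sites) at 14 of 19 positions, and eIF4G2 at 10. In that matrix the letters at positions 4, 5, 18 and 19 have frequencies of 92.4, 83.3, 99.1 and 97.6%. Each match is the best-scoring stretch near its summit, so the agreement there follows largely from how matches were chosen. None of the 5 matches overlapped an annotated exon. The match lay on the coding strand of eIF4A and HisRS and on the opposite strand of the other 3 genes.

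The share of these genes with a reproducible summit was near that of the genome. It was 6.98% (6 of 86, 95% exact Clopper-Pearson interval 2.60 to 14.6), beside 5.68% of all protein-coding genes (794 of 13968), and so the count is no result about translation genes as a class. By role, 4 of 44 initiation factors, 1 of 8 elongation factors, 1 of 17 cytosolic synthetases, none of 15 mitochondrial synthetases and neither termination factor had such a summit. In each replicate taken alone, the same 6 genes had a summit among its 1338 strongest candidates, the number of summits in the reproducible list. That compares with 5.76% of all protein-coding genes in replicate 1 and 5.64% in replicate 3. The reproducible list was derived from the other lists, so this recurrence was largely built in and is no separate support. No set test was made, because the genes were proposed with results of these data known.

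**Figure D1:**
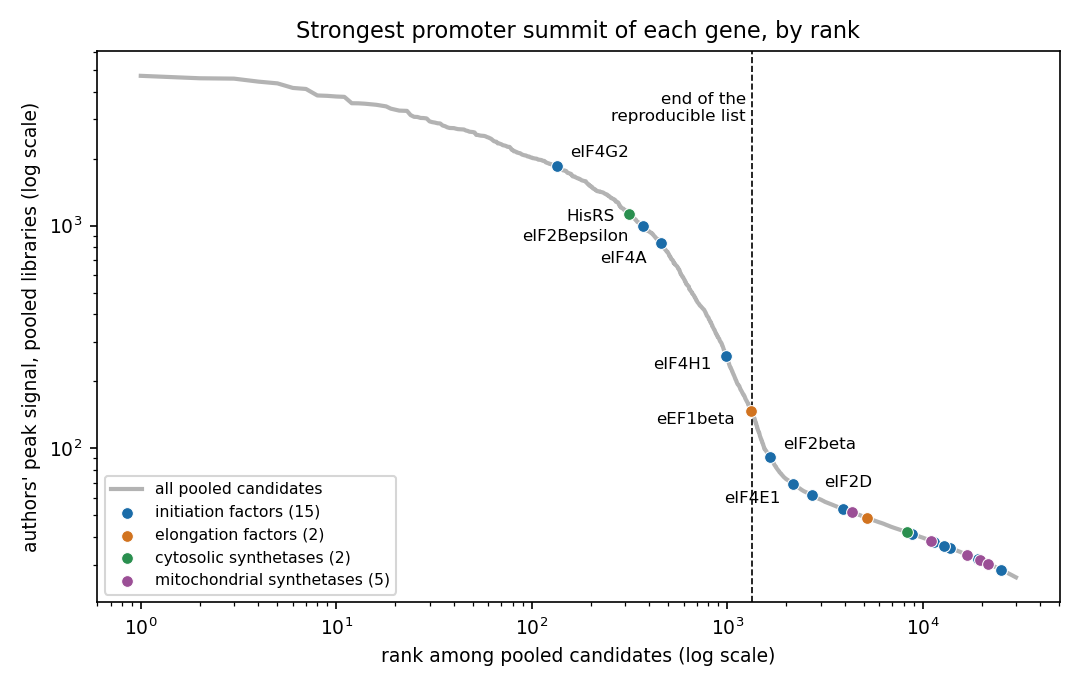
Authors' peak signal of the pooled libraries (vertical, log scale, no unit) against rank among the 30000 pooled candidates (horizontal, log scale). The grey line is all candidates, points are the strongest promoter candidate of each of the 24 genes that had one, coloured by role, and the dashed line is the end of the reproducible list at rank 1338. The 6 genes to its left range from eIF4G2 at 1858 to eEF1beta at 146, and the strongest gene to its right is eIF2beta at 91.0.

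Among initiation factors, eIF4G2 had the strongest peak. It encodes a scaffold protein of the eIF4G type, known in Drosophila for its role in male germ cells. Its summit at 3R 23819347, 110 bp upstream of the TSS, had a pooled signal of 1858 and rank 135 in the pooled list. Signal is the authors' value for each peak, with no stated unit, and is used here to describe peaks within a list. It was 893 in replicate 1 and 959 in replicate 3, at ranks 119 and 149. The summit lies within an intron of CG34355, and CG33111 begins at the same TSS on the same strand, so the peak cannot be ascribed to eIF4G2 alone. The second eIF4G gene, eIF4G1 on chromosome 4, had no promoter candidate in any of the 4 lists.

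eIF2Bepsilon encodes the catalytic subunit of eIF2B, the exchange factor that reloads eIF2 with GTP. Its summit at X 1922945 lay 71 bp upstream of the TSS and in no annotated gene. The signal was 996 in the pooled libraries, 487 in replicate 1 and 507 in replicate 3, at ranks 370, 338 and 401. Its TSS and that of Ocrl, an inositol polyphosphate 5-phosphatase gene on the other strand, are 107 bp apart, and the summit sits between them. None of the other 4 genes for eIF2B subunits had a reproducible promoter summit.

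eIF4A encodes the helicase that unwinds the 5′ end of mRNAs. Its summit at 2L 5981504 was farther out, 260 bp upstream of the TSS, with a pooled signal of 840 and rank 459. The replicates gave 363 and 451, at ranks 467 and 458. The TSS of chic, the profilin gene, lies 746 bp away on the other strand, and the summit is 486 bp from it.

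eIF4H1, whose human counterpart stimulates eIF4A, had a weaker peak. The summit at X 16448527, 138 bp upstream of the TSS, had a pooled signal of 259 and rank 989. Replicate 1 gave 113 and replicate 3 gave 151, at ranks 981 and 1002. CG34015 starts 363 bp away on the other strand. eIF2alpha, which encodes the regulated subunit of eIF2, is a neighbour, and this was also the reproducible summit nearest to it, 1534 bp upstream of its TSS.

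HisRS, which charges the histidine tRNA, was the only one of the 32 synthetase genes with a reproducible promoter summit. The summit at X 18515366 lay 62 bp upstream of the TSS. Its signal was 1122 in the pooled libraries, 532 in replicate 1 and 593 in replicate 3, at ranks 315, 300 and 326. A transcript of Bx, a LIM-only protein gene, is annotated from the same TSS, and CG6470 starts 561 bp away on the other strand. A further reproducible summit with a signal of 194 lay 2237 bp downstream of the TSS, in a coding exon of HisRS that is also an intron of Bx.

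eEF1beta, which encodes an exchange factor for the elongation factor that brings tRNAs to the ribosome, sat at the edge of the list. Its summit at 2R 16867906 lay 316 bp upstream of the TSS, with a pooled signal of 146 and rank 1325 of 1338, just above the lowest reproducible signal of 144. Replicate 1 gave 58.5 at rank 1324 and replicate 3 gave 104 at rank 1209. The summit is nearer to Psi, a splicing regulator gene on the other strand, at 192 bp. It was the only one of the 6 whose peak interval did not reach the gene's own TSS. The elongation factor genes eEF1alpha1 and eEF1gamma had no promoter candidate in any list, eEF2 had one in replicate 3 alone, and eEF1alpha2 had one of 48.6 in the pooled list.

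All 6 summits lay upstream of the TSS, at distances of 62 to 316 bp. This was also usual elsewhere: of the 794 protein-coding genes with a promoter summit, 755 (95.1%) had the strongest upstream, and the median distance was 124.5 bp, beside 124 bp for the 6. The median signal of the 6 was 918, beside 849 for all 794. Each of the 6 summits was also within 500 bp of a TSS of another protein-coding gene, on the opposite strand for 5 of them and on the same strand for eIF4G2. Over all 794 genes this held for 44.1%, and for 41.3% with the other gene on the opposite strand. No test was made of this difference, which rests on 6 genes and was noticed in the data. The opposite-strand TSS was near the 500 bp limit for HisRS (CG6470, 499 bp from the summit) and for eIF4A (chic, 486 bp). No narrower window was tried for this count.

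**Figure D2:**
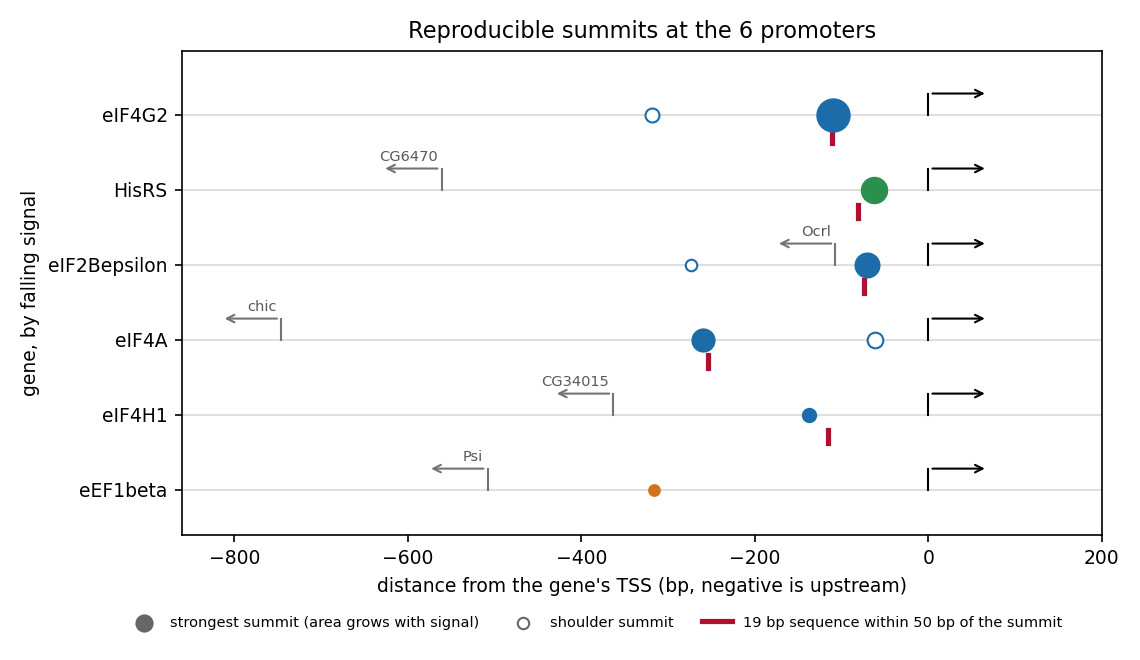
Reproducible summits at the 6 promoters, by distance from the gene's TSS in bp (horizontal, negative is upstream), with genes ordered by falling signal. Filled circles are the strongest summits (area grows with signal), open circles shoulder summits, black arrows the gene's TSS, grey arrows TSSs of opposite-strand neighbours, and red bars the centre of the 19 bp match; 5 of the 6 strongest summits have a match within 50 bp.

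Beside these summits, 3 of the 6 promoters held a second, weaker reproducible summit at a distance of 199 to 208 bp. It had a signal of 295 at eIF4G2, 387 at eIF4A and 180 at eIF2Bepsilon. None of the 3 shoulder summits had the 19 bp sequence within 50 bp, whereas the stronger summit beside each of them did. This was usual elsewhere. Of 783 reproducible promoter summits of other genes 457 had the sequence, and 438 of the 609 left with shoulder summits dropped. Few of the dropped summits therefore had it. How many other promoters hold a shoulder summit was not counted. At eIF4A the shoulder summit is the nearer one to the TSS, at 61 bp. At eIF2Bepsilon it falls in the 5′ UTR of Ocrl.

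The replicates placed the strongest summits at nearly the same base, 1 to 29 bp apart over the 6 genes. Signal was lower in replicate 1 at all 6, and the ratio of replicate 1 to replicate 3 ran from 0.564 at eEF1beta to 0.960 at eIF2Bepsilon. Over the 766 promoter summits of the reproducible list that were matched in both replicates the median ratio was 0.837, and the 5th and 95th percentiles were 0.443 and 1.15. The 6 ratios were all inside that range. Sequencing depth is unknown, because the lists hold no read counts, and 2 libraries give no measure of spread beyond these pairs of values.

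**Figure D3:**
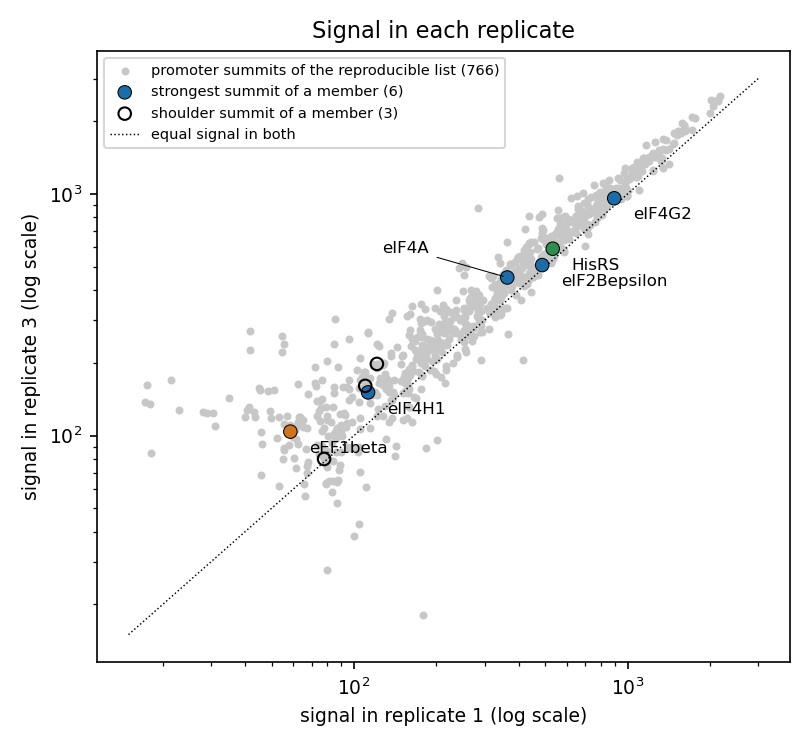
Authors' signal in replicate 1 (horizontal, log scale) and replicate 3 (vertical, log scale) at promoter summits of the reproducible list. Grey points are the 766 matched summits, filled points the strongest summit of each of the 6 genes, open points their 3 shoulder summits, and the dotted line is equal signal; the 6 genes keep within the cloud and all lie above the line.

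The remaining 80 genes had no reproducible summit at a TSS. The pooled candidates, which include background regions, reached 24 of the 86 promoters (27.9%), beside 27.4% of all protein-coding genes. Replicate 1 had a candidate at 31 of them, beside 29% of all genes, and replicate 3 at 29, beside 29.8%. In 46 of the 86 no list had any promoter candidate. The share of all protein-coding genes in no list was not counted, so the 46 is no result about these genes.

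Of the candidates below the reproducible list, that of eIF2beta was the strongest. eIF2beta encodes a subunit of eIF2, the factor that brings the initiator tRNA. It had a pooled signal of 91.0 at rank 1663, 318 bp upstream of the TSS. Its strongest summits in the replicates were elsewhere, at 132 and 140 bp upstream, with signals of 35.6 and 54.9. eIF4E1, the main cap-binding protein, had 69.1 in the pooled libraries, 22.0 in replicate 1 and 33.0 in replicate 3. eIF2D, a factor for non-canonical initiation, had 61.6, 27.9 and 25.9, and eIF5B, a GTPase of subunit joining, 53.4, 15.6 and 31.2. IleRS-m, the mitochondrial isoleucine synthetase and the strongest of its class, had 51.7, 18.1 and 31.9. For eIF4E1 and IleRS-m the replicate 1 summit lay more than 100 bp from the pooled one. Their values are thus not those of a single matched peak.

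All 5 pooled values lay between the lowest reproducible signal of 144 and the end of the pooled list at 26.3, and the lists of replicates 1 and 3 end at 14.1 and 15.3. For 4 of the 18 genes with a pooled candidate only, both replicates had a candidate within 100 bp of the pooled summit (22.2%), and so did 25.8% of all such genes. The 18 signals ran from 28.5 to 91.0 with a median of 38.2, beside 37.2 over the 3029 protein-coding genes with a pooled candidate only.

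Several complexes had no gene with a reproducible promoter summit. None of the 16 genes for subunits of eIF3, the scaffold on the small ribosomal subunit, had a reproducible or a pooled candidate summit at a TSS, beside 5.68% and 27.4% of all protein-coding genes. With 16 genes, a reproducible count of 0 is near that background, and eIF3g1 and eIF3l each had a weak candidate in 1 replicate list. The pooled count of 0 was not tested and depends on the window. At 1000 bp, eIF3b, eIF3d2, eIF3e, eIF3f1, eIF3h, eIF3i and eIF3l had a pooled candidate, beside 48.3% of all protein-coding genes. The complex was singled out after its values were seen. The nearest reproducible summit to any of the 16 was 2075 bp from a TSS. None of the 7 cap-binding genes of the eIF4E family had a reproducible promoter summit. eIF4EHP, which encodes a cap-binding repressor, holds 2 reproducible summits in an intron, with signals of 929 and 240, and both are at the promoter of Syx1A, the syntaxin gene. eRF1 and eRF3, which release the finished chain, had a candidate in replicate 1 only, of 38.1 and 23.4. Of the paralogues eIF4H1 and eIF4H2, the second had a pooled candidate of 41.3 and none in replicate 3.

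In 3 further genes the nearest reproducible summit was 500 to 2000 bp from a TSS, and each time it was at the promoter of another gene. It lay 1562 bp downstream of the TSS of eIF1 at Larp4B (signal 1515), 1534 bp from eIF2alpha at eIF4H1, and 1452 bp from eEF2 at nolo (signal 891). The median distance from a TSS to the nearest reproducible summit was 30242 bp for the 86 genes and 34652 bp for all protein-coding genes.

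The matrix of the 19 bp sequence was learned from the 1329 reproducible summits that are not at the promoters of these genes, so the letters of the 6 promoters did not shape it. The 3 summits inside HisRS and eIF4EHP, away from their TSSs, were among the 1329. With a threshold that 5% of flanking windows exceed, it was found within 50 bp of 5 of the 6 strongest summits (83.3%, 95% exact interval 35.9 to 99.6) and in none of their flanks. Among the 783 other promoter summits it was found at 58.4%, and in 5.36% of flanks. With shoulder summits dropped that share was 71.9%. Both shares, 58.4% and 71.9%, lie inside the interval of the 6. They come from summits among the 1329 that shaped the matrix, whereas the summits of the 6 did not shape it. The scores of the 5 sites, in log2 units, were 19.4 at eIF2Bepsilon, 16.4 at eIF4A, 14.6 at eIF4G2, 13.2 at HisRS and 12.9 at eIF4H1. The order of the scores was not that of the signals, which was eIF4G2, HisRS, eIF2Bepsilon, eIF4A and eIF4H1.

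The match was centred 1 bp from the summit at eIF4G2, 3 bp at eIF2Bepsilon, 6 bp at eIF4A, 19 bp at HisRS and 22 bp at eIF4H1, beside a median of 17 bp at other promoter summits. At eEF1beta the best score within 50 bp was 1.80, under the threshold of 6.35. A match scoring 14.9 lay farther upstream, 448 bp from the TSS, with no pooled candidate within 100 bp.

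Shorter strings were also searched on both strands. CNCAAACC, where N is any base, lay within 50 bp of the summit of eIF4G2, inside the printed match, and of HisRS, where it follows the match on the other strand. It lay under 10.5% of other promoter summits and in 1.12% of windows of the same length, centred 100 bp upstream of the TSS, of all protein-coding genes. AGNTGGCG, a string like the known CTCF core, was at none of the 6 summits, beside 3.70% of other promoter summits. TATCGATA, the sequence known as the DNA replication-related element, opens the printed stretch of eIF4A and was found at no other of the 6 summits, but also in 1 of their 6 flanking windows. It lay under 4.47% of other promoter summits and in 2.62% of the windows of all genes, and it was searched for after that stretch had been seen.

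A good match at a promoter did not always come with a peak. With a stricter threshold, exceeded by 1% of flanks, 12 of the 86 genes had a match within 500 bp of a TSS (13.95%), and so did 13.3% of all protein-coding genes. Of these 12, 6 had a reproducible summit at the promoter, or 50%, beside 33.9% of the 1851 protein-coding genes with a match. At the score of the weakest of the 5 printed matches, 12.9, the shares were 6 of 10 genes (60%) beside 57.7% of 963. That cut-off was taken from these genes, so the 5 with a printed match pass it by construction. The 33.9% and 57.7% include promoters whose summits shaped the matrix. The 6 genes without a reproducible summit at the first threshold were AspRS, eIF2A, IleRS-m, eIF4E5, eRF3 and eIF3i. AspRS, with a score of 14.7 at 382 bp downstream of the TSS, and eIF2A, with 14.4 at 127 bp downstream, scored close to eIF4G2 and had no pooled candidate within 100 bp of the match. Replicate 3 alone had a candidate near the match of AspRS, with a signal of 21.1 at 408 bp downstream of the TSS. The match of IleRS-m scored 13.7 at 271 bp upstream, and replicate 3 had a candidate of 31.9 at 334 bp upstream. The pooled candidate of IleRS-m, 383 bp upstream, had a further match scoring 11.0, centred 38 bp from it in an exon of ATPsynbetaL. The matches of the 6 genes with a peak were all upstream of the TSS. At 5 of these genes it is the printed match near the summit, so its side follows that of the summit. The match of eEF1beta, 448 bp upstream, had no pooled candidate within 100 bp, so its peak was not at the match. Of the 6 genes without a reproducible summit, IleRS-m, eIF4E5 and eIF3i had the match upstream and AspRS, eIF2A and eRF3 downstream. The side of the match was not counted over all protein-coding genes, and no difference was tested.

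**Figure D4:**
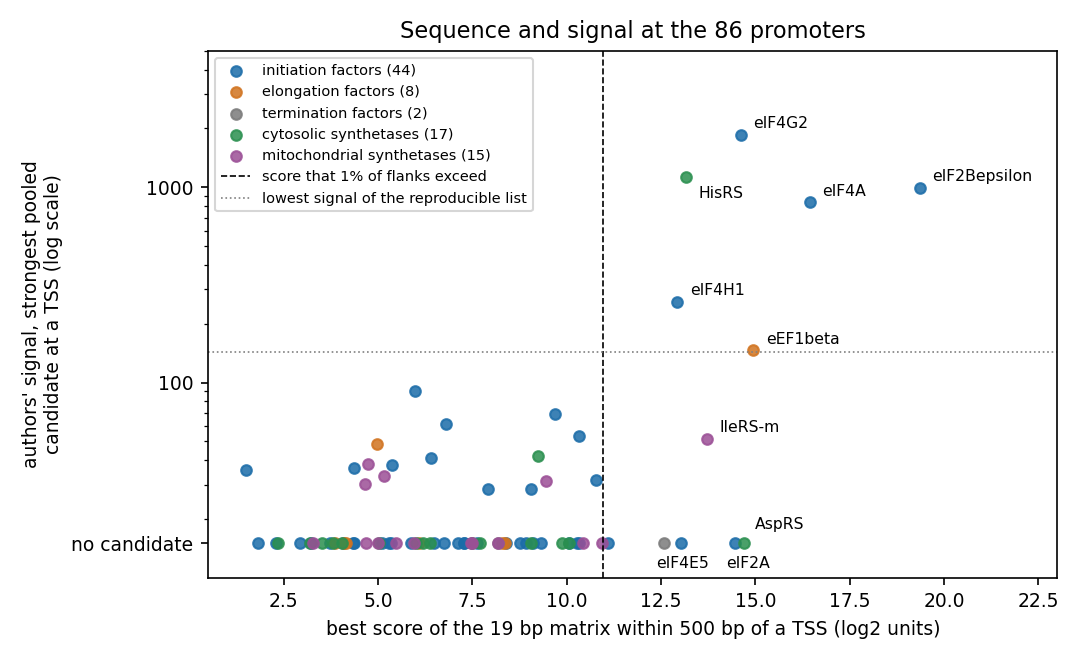
Best score of the 19 bp matrix within 500 bp of a TSS (horizontal, log2 units) and authors' signal of the strongest pooled candidate at a TSS (vertical, log scale) for each of the 86 genes, coloured by role; genes without a candidate stand at the bottom, off the signal scale. The dashed line is the score that 1% of flanks exceed and the dotted line the lowest reproducible signal of 144; all 6 genes on or above the dotted line are to the right of the dashed one, together with 6 genes that have no reproducible summit.

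Among 29 translation genes outside the symbol pattern, 4 had a reproducible promoter summit (13.8%, beside the 5.68% of all protein-coding genes). The 29 were listed with earlier results of these data known and no test was made, so this share is a description only. Lk6, the kinase that phosphorylates eIF4E, had the strongest summit, with a pooled signal of 3530, at 117 bp upstream of its TSS. Its signal was 1576 in replicate 1 and 1962 in replicate 3. Paip2, an inhibitor of the poly(A)-binding protein, had 1771, 772 and 979, with the summit 10 bp downstream of the TSS. Both belong to a list of 13 translation regulators, in which Thor, mTor, S6k and pAbp had no pooled candidate.

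Of 9 mitochondrial translation factor genes, mEFTs and mIF2 had reproducible summits. mEFTs, the exchange factor of mitochondrial elongation, had signals of 1036, 487 and 548 at 74 bp upstream of its TSS. mIF2, a mitochondrial initiation factor, had 995, 363 and 633 at 324 bp upstream. None of 7 synthetase and synthetase-complex genes had one, GluProRS, alpha-PheRS and beta-PheRS included, and AIMP3, a scaffold of that complex, had a pooled candidate of 112.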

How the data were processed

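Peak lists on dm6 were used as deposited: candidates per replicate and pooled, and the optimal list, cut by irreproducible discovery rate and called reproducible here. Per the deposited notes, candidates were called against a control alignment and the optimal list was derived from the other lists. The sources used here do not name the caller, the aligner or the threshold. Column 7 of the deposited lists, the authors' peak signal, is the value used, and its scale differs between lists. Read depth is unknown, and intervals cover counting error only.

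A summit (start plus offset) was assigned to a gene within 500 bp of any annotated TSS (Ensembl release 115). A shoulder summit is one with a stronger summit at most 300 bp away, and summits were matched between lists within 100 bp. The 19 bp matrix was grown in 8 rounds from sites around C(A or T)CAAACC under summits away from the promoters of these genes, with flanks centred 250 bp to the right. The search was tested on simulated data. No test between groups was possible with 1 group, and all shares are descriptions.

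The genes, the other gene lists and the alternatives were chosen with earlier results of these data known. Named are all genes with a reproducible promoter summit, the 5 of highest signal without one, the strongest of each role, neighbours that share a summit, and listed genes with a summit; others named were chosen after their values were seen. All 31 names written in the other lists were matched, 4 under another symbol, and 2 were already among the 86. The dm3 lists were not used. Scripts ran under Python 3.11.15 with SciPy 1.17.1 (intervals), NumPy 2.4.6 and Matplotlib 3.10.9.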

Additional observations from a re-analysis of the deposited data

How the results depend on the processing

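The count of 6 genes with a reproducible promoter summit ran from 4 to 8 over 9 alternatives. A window of 200 bp, or an overlap of the peak with a TSS, gave 5 (5.81%), without eEF1beta. The shares of all protein-coding genes were 4.01% and 4.35%. Summits ranked in the upper part of the list, above its median signal, gave 4 (4.65%), without eIF4H1 and eEF1beta. Of all protein-coding genes, 3.94% had one. A window of 1000 bp, the 5'-most TSS, dropped shoulder summits and each replicate alone gave the same 6 (6.98%). The shares of all protein-coding genes were 6.76%, 5.38% and 5.57%, with 5.76% in replicate 1 and 5.64% in replicate 3. The replicates are no separate check, because the reproducible list was derived from the other lists. Added genes outside the symbol pattern gave 8 of 102 (7.84%), beside 5.68% of all protein-coding genes. The count of 24 genes with a pooled candidate depended on the window, with 13 at 200 bp and 48 at 1000 bp, beside 14.4% and 48.3% of all protein-coding genes; a wider window takes in more summits by construction. It was 29 to 31 in the replicates' own lists. At 200 bp the signal of eIF4A was that of its shoulder summit, 387, and that of eEF1beta 61.0. The sequence stayed at 5 of 6 summits within 100 bp and with the stricter threshold. At other promoter summits its share was 69.0% within 100 bp and 50.7% with the stricter threshold. With shoulder summits dropped, these shares were 82.9% and 64.0%. Flanks of the other promoter summits had it at 11.2% within 100 bp. The 29 other translation genes gave 3 and 4 with summits at 200 and 1000 bp. Of all protein-coding genes, 4.01% and 6.76% had one. No paired analysis was possible because there is 1 group. Values near the floor of the lists cannot be told from background.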
